A study of Mus musculus with 9 samples.

Results

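Chromatin accessibility was examined at 9 genes of the ATP-binding cassette (ABC) transporter family in purified mouse brain endothelial cells (ECs). The genes were the drug efflux pumps Abcb1a, Abcb1b and Abcg2, the multidrug resistance associated proteins Abcc1, Abcc4 and Abcc5, their relative Abcc6, and the lipid exporters Abca1 and Abcg1. Every open chromatin peak that the authors' annotation named after 1 of these genes, the nearest by distance to a transcription start site (TSS), was taken, which gave 258 of the 253457 peaks in the 9 deposited lists and 9 of the 20035 gene names in them. Peaks of different libraries that shared at least 1 bp were merged into regions, which left 72 transporter regions among 92495 in all. Peaks were divided into start-site peaks, whose centre lay within 1000 bp of the annotated TSS, and distal peaks.

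The study deleted Klf4, which encodes the zinc-finger transcription factor KLF4, from ECs and compared the brains of young and old mice by Omni-ATAC-seq, a method that marks accessible DNA by the cuts of the Tn5 transposase. There were 2 libraries of young WT Cre mice, 3 of young EC-K4KO mice, 2 of old WT Cre mice and 2 of old EC-K4KO mice. EC-K4KO mice carried floxed Klf4 and the VE-Cadherin (Cdh5) Cre driver, WT Cre mice carried the driver alone, and all were on the C57BL/6J background. Per the study's methods tamoxifen was given to young adults, and its discussion states that control and experimental groups were treated alike. The driver is active in ECs of the whole body, and males and females were used without a sex being given for a library. The labels say young or old without an age in months. The paper gives ranges in months for its young and old cohorts, without tying a library to an age. The labels name replicates without naming animals, the study calls its ATAC-seq points biological replicates, and p-values measure only the spread between these libraries. Young and old libraries also carry different library name prefixes, so age and library series cannot be told apart.

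ABC transporters use ATP to carry substrates across membranes. At the blood-brain barrier, P-glycoprotein, which mice encode in both Abcb1a and Abcb1b, and the breast cancer resistance protein Abcg2 return drugs and toxins to the blood, and Abcc4 exports organic anions, cyclic nucleotides and drug conjugates. Abca1 loads cholesterol and phospholipid onto lipid-poor apolipoproteins, and Abcg1 passes cholesterol to lipoprotein particles. An accessible start site is a usual feature of an active promoter and accessible distal sites are candidate regulatory elements, but neither measures transcript or protein.

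The sequences below carry the main results and are shown for that reason. They begin with the promoter of Abcc4, the member with a start-site peak in every library. Next is the internal promoter of Abcg2, the only RefSeq start of that gene with a peak. The promoters of Abca1 and Abcb1b follow, whose start-site regions had a peak in all 7 libraries outside young WT Cre, old WT Cre included. A peak overlapped the Abcb1b bases printed here in 6 libraries, 2 of them young EC-K4KO. Abcc1 had the same pattern as these genes, but no RefSeq promoter was found for it. The central 200 bases of the strongest and of the next strongest distal region come last. Promoters span 250 bases before to 50 bases after a RefSeq TSS on GRCm38.p6, read in the direction of the gene. Capitals mark matches, on either strand, to the motif letters named after them.
Abcc4 promoter, chr14:118706170-118706469, minus strand: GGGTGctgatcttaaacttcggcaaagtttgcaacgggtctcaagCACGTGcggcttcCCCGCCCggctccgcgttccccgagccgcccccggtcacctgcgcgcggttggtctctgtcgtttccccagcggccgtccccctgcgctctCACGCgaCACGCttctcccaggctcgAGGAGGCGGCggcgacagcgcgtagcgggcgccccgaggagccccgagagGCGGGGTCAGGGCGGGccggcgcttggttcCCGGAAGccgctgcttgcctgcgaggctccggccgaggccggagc
Abcg2 internal promoter, chr6:58640296-58640595, plus strand: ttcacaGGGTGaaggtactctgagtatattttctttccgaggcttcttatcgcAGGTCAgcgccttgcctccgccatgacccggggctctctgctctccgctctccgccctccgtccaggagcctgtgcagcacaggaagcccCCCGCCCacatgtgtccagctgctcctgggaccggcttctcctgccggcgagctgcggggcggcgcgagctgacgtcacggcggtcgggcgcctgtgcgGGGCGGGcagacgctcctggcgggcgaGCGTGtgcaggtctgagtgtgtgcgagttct
Abca1 promoter, chr4:53159846-53160145, minus strand: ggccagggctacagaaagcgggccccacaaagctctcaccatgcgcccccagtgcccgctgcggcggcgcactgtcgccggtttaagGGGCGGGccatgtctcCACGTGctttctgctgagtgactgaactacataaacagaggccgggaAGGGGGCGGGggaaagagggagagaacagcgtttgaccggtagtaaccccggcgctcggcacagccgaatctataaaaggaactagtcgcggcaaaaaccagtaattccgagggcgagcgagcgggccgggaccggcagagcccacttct
Abcb1b promoter, chr5:8797897-8798196, plus strand: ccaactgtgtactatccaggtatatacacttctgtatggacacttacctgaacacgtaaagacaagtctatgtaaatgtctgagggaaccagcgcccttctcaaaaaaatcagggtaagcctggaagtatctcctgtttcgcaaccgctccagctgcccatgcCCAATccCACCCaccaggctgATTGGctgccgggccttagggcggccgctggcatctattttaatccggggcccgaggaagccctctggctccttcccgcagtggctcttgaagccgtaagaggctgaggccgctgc
Abcc6 intron 9 region, chr7:46013376-46013575, plus strand: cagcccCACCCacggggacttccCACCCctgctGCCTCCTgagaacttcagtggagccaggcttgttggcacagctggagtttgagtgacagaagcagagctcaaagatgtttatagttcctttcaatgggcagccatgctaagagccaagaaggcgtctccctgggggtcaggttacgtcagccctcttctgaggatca
Abcc4 upstream region, chr14:118737307-118737506, plus strand: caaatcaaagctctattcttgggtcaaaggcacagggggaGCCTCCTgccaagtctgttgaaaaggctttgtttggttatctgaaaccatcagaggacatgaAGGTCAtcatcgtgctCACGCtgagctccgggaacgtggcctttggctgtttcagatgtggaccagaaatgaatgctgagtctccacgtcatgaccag

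The letters searched were CACCC (bound by KLF factors), GGGCGGG (GC box), CCGGAAG (ETS factors), GCGTG (core of the xenobiotic response element), TGACNNNGC (antioxidant response element), CACGTG (E-box), CCAAT (the box bound by NF-Y), AGGTCA (recognised by nuclear receptors), TGANTCA (AP-1) and AGGNGGC (core of the CTCF site, added after the peaks had been seen). The Abcc4 promoter, with a GC content of 72.7%, held matches to 6 of these motifs besides the CTCF core, among them GC boxes at -192 and -16 from the TSS (the first base of the match as printed), the xenobiotic core at -101 and -94, an E-box at -205 and the single ETS match of the member promoters at 6. The Abcg2 internal promoter (67.0% GC) held GC boxes at -107 and -8, the xenobiotic core at 20 and a nuclear receptor motif at -197. The Abca1 promoter (62.7% GC) held GC boxes at -163 and -97 and an E-box at -147, and the Abcb1b promoter (55% GC) held CCAAT boxes at -87 and -66 on either side of a CACCC match at -80. CACCC was in 7 of the 9 RefSeq windows found for 6 members and in 57.5% of all 32841 promoters of that length, and the GC box was in 4 of 9 against 25.6%. The other shares among all promoters were 8.86% for the ETS motif, 32.4% for the xenobiotic core, 12.4% for the antioxidant motif, 7.15% for the E-box, 37.4% for the CCAAT box, 16.3% for the nuclear receptor motif, 7.81% for AP-1 and 29.4% for the CTCF core. The Abcc6 intron 9 core held CACCC 2 times and the CTCF core 1 time. The Abcc4 upstream core held 1 match each to the xenobiotic core, the nuclear receptor motif and the CTCF core. Among the cores of all 4872 regions with a peak in every list, 49.98% held CACCC, 42.8% the xenobiotic core, 8.64% the nuclear receptor motif and 30.7% the CTCF core. A match is a description of these letters only.

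The transporter genes had few peaks in young WT Cre libraries and many in the others, as did the genome. Replicates 1 and 2 of young WT Cre held 5 and 8 transporter peaks, the 3 young EC-K4KO libraries 15, 27 and 31, the old WT Cre libraries 40 and 35, and the old EC-K4KO libraries 51 and 46. The groups did not overlap in these numbers, and young WT Cre was lowest. In the same order the whole lists held 6157 and 9598 peaks, then 23848, 25309 and 27992, then 43893 and 32555, then 45026 and 39079. Per 10000 peaks of the list the transporters had 8.12 and 8.34 peaks in young WT Cre, 6.29, 10.7 and 11.1 in young EC-K4KO, 9.11 and 10.8 in old WT Cre, and 11.3 and 11.8 in old EC-K4KO. On that scale young EC-K4KO replicate 1 lay below both young WT Cre libraries, and young WT Cre, young EC-K4KO and old WT Cre were no longer in separate ranges. Among the 6157 strongest peaks of each list, ordered by -log10 p, the transporters held 3 to 6 peaks in every library.

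Averaged over the ages, EC-K4KO libraries had 14.4 more transporter peaks than WT Cre libraries, and averaged over the genotypes, old libraries had 27.6 more than young ones. At equal list length these differences were 1.67 and -0.167 peaks. The numbers are sums over chosen genes and were not tested. Read depth was not analysed here, and its part in the length of the lists was not tested.

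**Figure D1:**
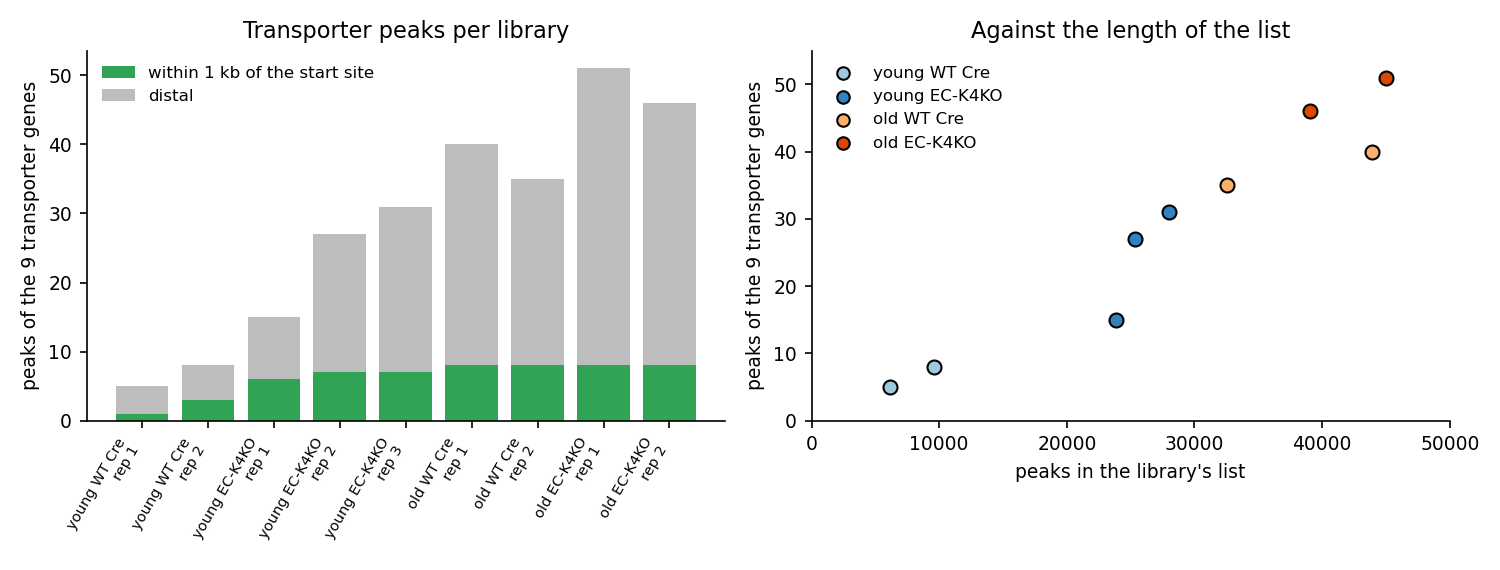
Transporter peaks in each library, as bars divided into start-site and distal peaks (left), and against the number of peaks in the library's list (right, 1 point a library, coloured by group). Start-site peaks level off at 8 in the old libraries while distal peaks run from 4 to 43, and the library with the longest list has the most transporter peaks.

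Start-site peaks were found at 8 of the 9 genes, and most transporter peaks were distal. There were 56 start-site peaks and 202 distal ones. The number of genes with a start-site peak was 1 and 3 in the young WT Cre libraries, 6, 7 and 7 in young EC-K4KO, and 8 in each of the 4 old libraries. Of the 12755 genes with one in any list, 3891 and 5418 had one in young WT Cre and 8180, 9272 and 9505 in young EC-K4KO. Old WT Cre had 10134 and 10219 and old EC-K4KO 10929 and 10489, so the genome followed the same order. By the authors' classes, 166 peaks were in introns, 61 intergenic, 30 at a promoter and 1 in an exon. That promoter class reaches only a short way downstream of the TSS, and it therefore called none of the start-site peaks of Abcb1a, Abcb1b and Abcc5 a promoter. Start-site peaks were 1 of 5 and 3 of 8 transporter peaks in young WT Cre, where they were 63.2% and 56.5% of all peaks, and 15.7% to 22.9% in the old libraries, where they were 23.2% to 31.5% of all peaks. The transporter counts depend on the annotated TSS. An Abcg2 peak found in all 9 libraries covers an internal start of that gene but counts as distal here.

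Abcb1a and Abcb1b, the P-glycoprotein genes, lie side by side on chromosome 5. The start-site region of Abcb1a (chr5:8659807-8661007, with its peak centres in intron 1) had no peak in young WT Cre replicate 1 and a peak in the other 8 libraries. Its position in the list, as a percentage from the strongest peak, was 79.5 in young WT Cre replicate 2, 58.9, 53.7 and 71.2 in young EC-K4KO, 48.6 and 53.8 in old WT Cre, and 53.3 and 60.8 in old EC-K4KO. It was thus in the weaker part of the lists in 7 of 8 libraries, and it was 238 to 1201 bp wide. RefSeq also places an Abcb1a start far upstream (chr5:8566841-8567140), and there all 4 old libraries and no young library had a peak, at fold enrichments of 4.09 to 4.28. The authors' annotation named that peak after Rundc3b, so it is not counted among the 258.

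Neither young WT Cre library had a peak at the Abcb1b start-site region (chr5:8797974-8798693), and the 7 others did. Its position was 44.96%, 67.3% and 43.9% of the list in young EC-K4KO, 49.8% and 57.4% in old WT Cre, and 40.9% and 50.9% in old EC-K4KO. The width was 280, 340 and 611 bp in young EC-K4KO, 582 and 633 bp in old WT Cre, and 668 and 709 bp in old EC-K4KO. The widest peaks were in old EC-K4KO, and young EC-K4KO overlapped with old WT Cre. A TSS of the gene model Gm5106 lies in the same region, so the peak cannot be assigned to Abcb1b alone. Beyond 1 kb the pair of genes had 5 and 8 peaks, in at most 2 libraries a region.

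Abcg2 had no peak within 1000 bp of the TSS that the authors' annotation used, in any library. Its most constant peak lay 43860 bp downstream of that TSS in intron 1 (chr6:58640199-58640858), was present in all 9 libraries and covered an alternative RefSeq start and 4 start sites of the gene in GENCODE. No library had a peak over the RefSeq starts further upstream (chr6:58584283-58584582 and chr6:58596422-58596721). In the order of the lists the internal start stood at positions 3814 and 2980 in young WT Cre, 1711, 1767 and 1926 in young EC-K4KO, 3204 and 2841 in old WT Cre, and 2344 and 2330 in old EC-K4KO. In both ages, every EC-K4KO library placed it nearer the top than every WT Cre library. The fold enrichment was 4.42 and 5.31 in young WT Cre, 6.71, 9.98 and 10.2 in young EC-K4KO, 7.73 and 8.60 in old WT Cre, and 10.2 and 9.53 in old EC-K4KO.

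Abcg2 also had an intronic region at 27127 bp (chr6:58623140-58624678) that was open in 2 of 3 young EC-K4KO libraries and all 4 old ones. Its position was 63.3% and 57.2% of the list in young EC-K4KO, 17.2% and 24.9% in old WT Cre, and 13.3% and 13.3% in old EC-K4KO. The 4 old libraries all placed it higher than the 2 young EC-K4KO libraries with a peak, and the other young libraries had no position to compare. The share of all regions that separate in this way was not counted. Regions at 50076 and 57789 bp, which were named after their values were seen, had a peak in all 4 old libraries and in no young library.

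Abcc4 had more peaks than any other member, with 83 of the 258 in 17 regions, and was the only gene of the 9 with a start-site peak in every library. That region (chr14:118705847-118706771) stood at 84.6% and 33.2% of the list in young WT Cre, 18.3%, 22.6% and 17.99% in young EC-K4KO, 19.5% and 15.5% in old WT Cre, and 16.8% and 16.6% in old EC-K4KO. Young WT Cre replicate 1 placed it near the end of its short list. Its width was 307 and 575 bp in young WT Cre, 506, 623 and 801 bp in young EC-K4KO, 835 and 729 bp in old WT Cre, and 840 and 863 bp in old EC-K4KO. The second RefSeq start of Abcc4 (chr14:118676882-118677181) had no peak in any library.

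Upstream of Abcc4, an intergenic region at -31179 bp (chr14:118737050-118737769) was open in all 9 libraries and stronger than the start site in each of them. It stood at positions 2046 and 809 in young WT Cre, 1671, 2717 and 2335 in young EC-K4KO, 679 and 1362 in old WT Cre, and 1020 and 800 in old EC-K4KO. By these positions the 4 old libraries were all above the 3 young EC-K4KO libraries, whereas young WT Cre spanned both. As a percentage of the list, young WT Cre stood at 33.2% and 8.43%, below every old library. A region at -12499 bp (chr14:118718510-118718931) was open in every library other than young WT Cre and in neither of those, with positions of 45.1%, 30.9% and 22.7% of the list in young EC-K4KO, 14.4% and 21.5% in old WT Cre, and 9.59% and 8.83% in old EC-K4KO. It was the only distal region of the 64 with that pattern, and the share of all distal regions with it was not counted.

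The remaining named Abcc4 regions lay at -29049 and 14497 bp, each open in 2 young EC-K4KO libraries and all old ones, and at -3694 bp, open in 4 libraries. The region at -29049 bp also covers the TSS of the gene model Gm27198. An intronic region at 47957 bp, named after its values were seen, was open in all 9 libraries but weak, at 33.6% to 70.4% of the lists.

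Abcc1 and Abcc5, exporters of conjugates and of nucleotide analogues, had few regions, 3 and 2. Abcc1 (chr16:14360952-14362265) had a start-site peak in 7 libraries, the exceptions being both of young WT Cre. It stood at 52.4%, 59.9% and 40.3% of the list in young EC-K4KO, 47.9% and 55.1% in old WT Cre, and 52.3% and 60.8% in old EC-K4KO. The positions of these 3 groups overlapped, and the width ran from 675 bp in young EC-K4KO replicate 1 to 1309 bp in both old EC-K4KO libraries. Abcc5 (chr16:20425741-20426708) had one in 8 libraries, at 73.8% in young WT Cre replicate 2, 42.9%, 44.0% and 12.7% in young EC-K4KO, 19.5% and 28.1% in old WT Cre, and 19.7% and 21.8% in old EC-K4KO. Young EC-K4KO replicate 3 was the highest and its 2 fellow libraries were below all old ones. The 1 distal region of Abcc5, at 12229 bp in intron 2 (chr16:20413891-20414364), was open in 2 young EC-K4KO libraries and in the 4 old ones.

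Abcc6, whose loss causes the ectopic mineralisation disorder pseudoxanthoma elasticum, had the strongest transporter peak of all. A region in intron 9, 16797 bp downstream of the TSS (chr7:46013096-46013874), stood at positions 143 and 242 in young WT Cre, 552, 482 and 411 in young EC-K4KO, 99 and 98 in old WT Cre, and 37 and 61 in old EC-K4KO. It was in the top 2.52% of every list. By these positions the old libraries were all above the young ones, and young EC-K4KO was lowest. As a percentage of the list, young WT Cre was lowest instead, at 2.32% and 2.52%, against 2.31%, 1.90% and 1.47% in young EC-K4KO. The fold enrichment, 8.27 and 7.34 in young WT Cre, 6.35, 10.4 and 9.85 in young EC-K4KO, and 10.1 to 11.6 in the old libraries, did not separate the groups in the same way. The Abcc6 start site (chr7:46030024-46030539), by contrast, had a peak in the 4 old libraries only, at 30.9% and 39.5% of the list in old WT Cre and 34.8% and 41.4% in old EC-K4KO.

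Abca1 and Abcg1, the cholesterol exporters, differed in the strength of their start sites. The Abca1 start site (chr4:53158721-53160250) had a peak in all libraries but those of young WT Cre, at 25.03%, 18.3% and 21.2% of the list in young EC-K4KO, 14.1% and 25.9% in old WT Cre, and 13.7% and 13.6% in old EC-K4KO. By this percentage young EC-K4KO and old WT Cre overlapped. Both old EC-K4KO libraries stood nearer the top than every library of those groups, though close to the 14.1% of old WT Cre replicate 1. The peak was 335 to 454 bp wide in 6 libraries and 1414 bp in young EC-K4KO replicate 1, where its centre moved into intron 1. The Abcg1 start site (chr17:31057589-31058149) had a peak in 6 libraries, at 64.2% and 79.1% of the list in young EC-K4KO replicates 2 and 3, 70.6% and 77.9% in old WT Cre, and 61.7% and 76.4% in old EC-K4KO. It was the weakest start site of the 8 by its best position.

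Abca1 had further regions at -36367 bp (chr4:53195945-53196473), -27383 bp (chr4:53186772-53187607) and 58974 bp in intron 7 (chr4:53100631-53101523). The 4 old libraries held all 3 of them, young EC-K4KO replicate 3 held the upstream pair, and young EC-K4KO replicate 2 held the one at -27383 bp. At -27383 bp the fold enrichment was 5.59 and 4.57 in the young EC-K4KO libraries with a peak, 5.77 and 7.80 in old WT Cre, and 10.2 and 9.26 in old EC-K4KO. Here the old EC-K4KO libraries were highest, above both old WT Cre libraries. Abcg1 had 11 regions, of which the one at 3000 bp in intron 1 was open in 7 libraries, including young WT Cre replicate 2; it was named after its values were seen.

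**Figure D2:**
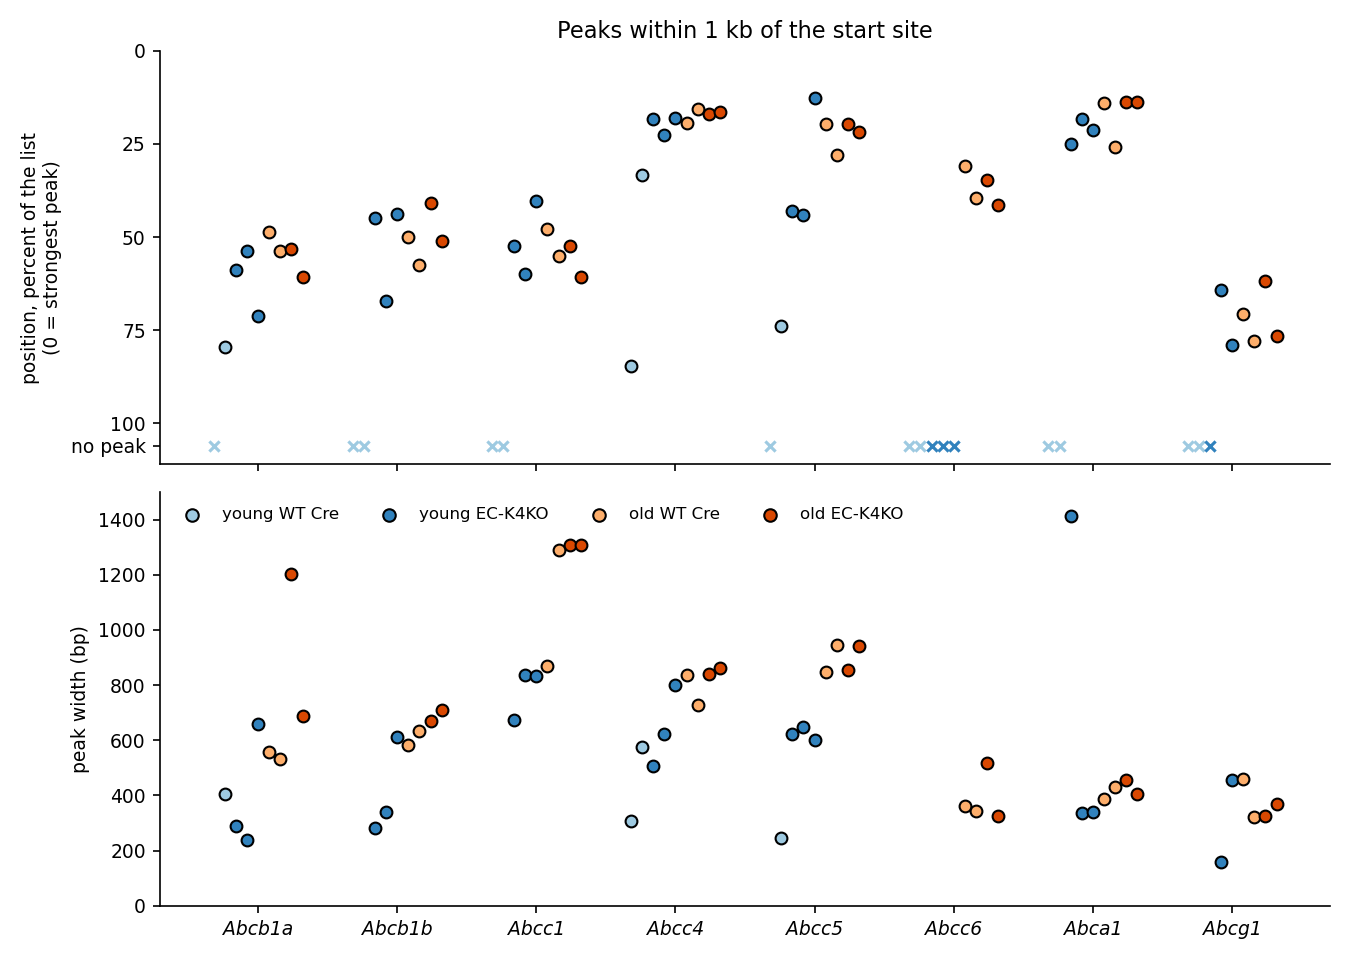
Position in the list (top, percent, 0 being the strongest peak, crosses for no peak) and width in bp (bottom) of the start-site peak of 8 genes, 1 point a library in the order of the replicates, coloured by group. Abcc4 and Abca1 lie nearest the top in most libraries, Abcg1 lies at 61.7% or beyond, and the crosses belong to young WT Cre libraries apart from those of Abcc6 and 1 of Abcg1.

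A gene or region was called gained when every library of 1 group had a peak and no library of the other did, which was compared with the same share over all features. Young EC-K4KO against young WT Cre gained start-site peaks at 3 of 8 transporter genes, namely Abca1, Abcb1b and Abcc1, against 14.9% of 12755 genes, and gained 4 of 72 transporter regions, against 4.07% of all regions. Old WT Cre against young WT Cre gained start-site peaks at 5 genes, namely Abca1, Abcb1b, Abcc1, Abcc6 and Abcg1, against 31.1% of all genes, and gained 22 regions, against 17.4%. Both comparisons use the same 2 young WT Cre libraries, whose lists were the shortest.

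Old EC-K4KO against old WT Cre gained no transporter start site, against 2.27% of genes, and 3 regions, against 4.76%. The 3 regions were named after their values were seen: Abca1 at 4216 bp in intron 1, Abcg1 at -38046 bp and the region at -60874 bp of Abcb1b, which lies inside intron 23 of Abcb1a. Each of them was weak, at 57.1% of the list or beyond. In the other direction, the Abca1 region at 7304 bp had a peak in both old WT Cre libraries and in no old EC-K4KO library, which made 1 of 72 transporter regions lost (1.39%), against 0.427% of all regions. Old EC-K4KO against young EC-K4KO gained the start site of Abcc6, against 5.15% of genes, and 11 regions, against 11.4%. No transporter start site was lost in any of the 4 comparisons, in which 0.243%, 0.423%, 0.533% and 0.306% of all genes lost theirs, in the order given here. The share of transporter regions gained by EC-K4KO, 5.56% in young and 4.17% in old mice, lay near the background in both ages.

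**Figure D3:**
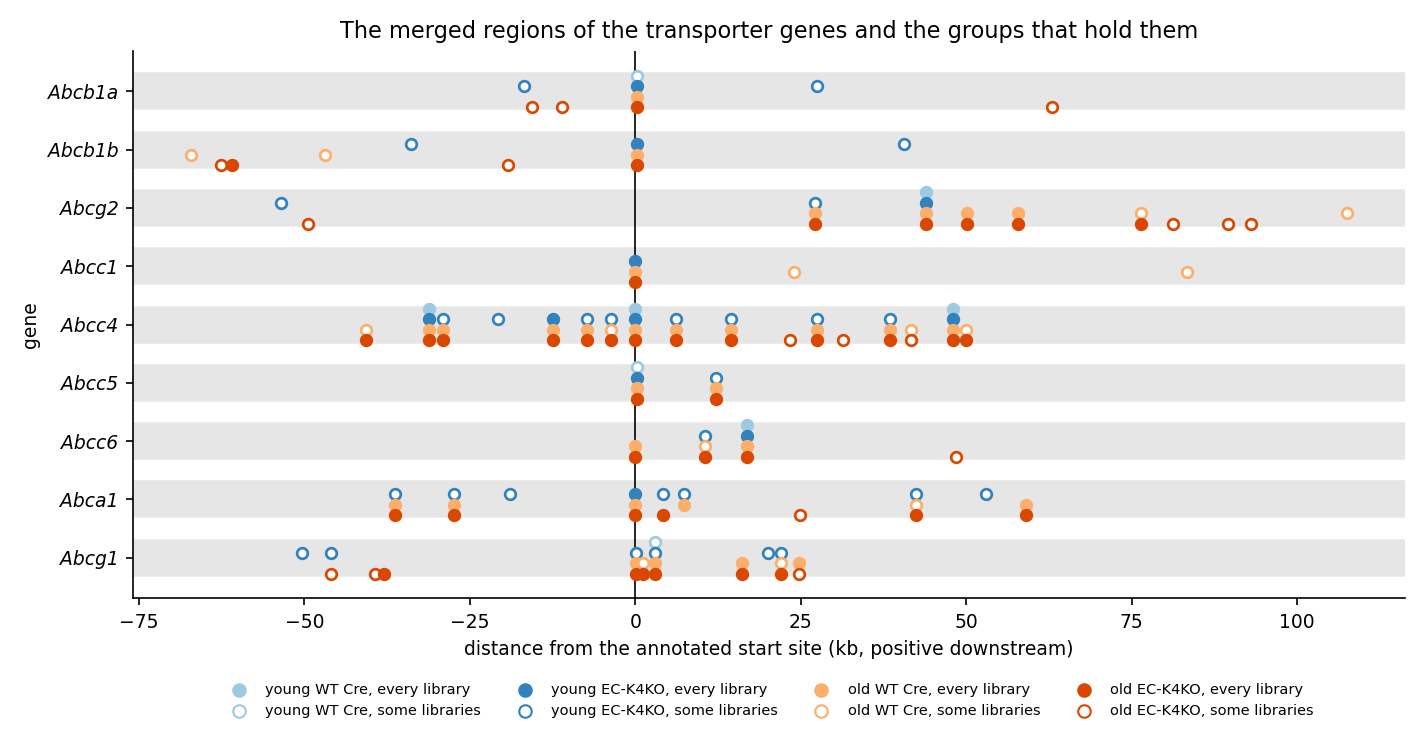
The 72 regions by distance from the annotated TSS (kb, positive downstream) and gene, with 1 symbol for each group that holds a peak, filled where every library of the group does and open where some do. The young WT Cre symbols fall on 8 regions, and the densest set lies around Abcc4 and carries old libraries at most of its regions.

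Of the 64 distal regions, 5 had a peak in a young WT Cre library (7.81%), 33 in a young EC-K4KO library (51.6%), 36 in an old WT Cre library (56.25%) and 48 in an old EC-K4KO library (75%). Among all 80136 distal regions the shares were 6.25%, 45.4%, 50.3% and 48.7%. Regions seen in 1 library only made up 29 of the 72 transporter regions (40.3%, against 57.3% of all regions), and 5 regions were seen in all 9 (6.94%, against 5.27%). Old libraries alone held 31 of the 64 distal regions (48.4%, against 52.2% of all distal regions), and 4 of these were in all 4 old libraries (6.25% of the 64, against 4.05%). EC-K4KO libraries alone held 28 (43.75%, against 47.3%), of which 24 were in a single library (37.5% of the 64, against 40.8%).

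The 5 regions with a peak in every list allowed a test of strength and width. Strength was the percentile of the region, by -log10 p, among the 4872 regions present in all 9 lists, higher being stronger, and was compared between groups of libraries in an exact permutation test (two-sided, the other factor as stratum), with Benjamini-Hochberg adjustment over all 4872 regions. The test was added after the lists had been seen, because only Abcc4 had a promoter-class peak in every list. No region passed an adjusted p of 0.05 for genotype or age, in strength or width (0% of regions called in each of the 4 tests). The 60 arrangements of the libraries cannot give an exact permutation p under 0.0167. After adjustment a region could therefore pass only if a large share of all regions had that smallest p. The count of 0 thus does not show that the groups are alike. At an unadjusted p under 0.05 there were 539 regions for strength by genotype, 1190 for strength by age, 1727 for width by genotype and 2199 for width by age.

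The Abcg2 internal start had strength percentiles of 25.4 and 44.2 in young WT Cre, 65.8, 65.0 and 61.8 in young EC-K4KO, 44.6 and 47.9 in old WT Cre, and 56.3 and 56.5 in old EC-K4KO. EC-K4KO was above WT Cre by 19.8 points on average, in every library at both ages. The exact permutation p was 0.0167, the smallest that the 60 arrangements of the libraries can give, and the adjusted p was 0.244, so the difference did not pass. It was larger than that of 97.6% of all regions and ran from 15.1 to 24.5 points as each library was left out in turn. The difference by age was 1.83 points (exact permutation p = 0.933, adjusted p = 0.969).

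The Abcc6 intron 9 region had percentiles of 97.1 and 95.1 in young WT Cre, 88.7, 90.1 and 91.6 in young EC-K4KO, 98.0 and 98.0 in old WT Cre, and 99.3 and 98.8 in old EC-K4KO. Old libraries were above young ones by 5.39 points with no overlap (exact permutation p = 0.0167, adjusted p = 0.111). That difference was larger than those of 66.7% of all regions, and 24.4% of all regions had an unadjusted p under 0.05 by age in the same test. By fold enrichment in place of -log10 p the sign of this difference turned, to -8.41 points. By genotype it was -2.46 points (exact permutation p = 0.183, adjusted p = 0.553).

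The Abcc4 upstream region had percentiles of 58.4 and 83.5 in young WT Cre, 66.5, 48.8 and 54.6 in young EC-K4KO, 86.2 and 72.8 in old WT Cre, and 79.6 and 83.8 in old EC-K4KO. Old libraries were 16.8 points above young ones (exact permutation p = 0.0667, adjusted p = 0.195), with young WT Cre replicate 2 inside the range of the old libraries. The difference was 10.5 points without young WT Cre replicate 1 and 23.1 without replicate 2. The Abcc4 start site differed by -2.92 points by genotype and -7.51 by age, and the Abcc4 region at 47957 bp by -8.59 and -10.8 points, with adjusted p from 0.195 to 0.891 (exact permutation test). At 47957 bp young WT Cre replicate 1 stood at 33.8 and replicate 2 at 6.13. The differences by genotype and age there were -1.68 and -3.87 points without replicate 1, and -15.5 and -17.7 without replicate 2.

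For the Abcc4 promoter, the percentile among the 2279 genes with a promoter-class peak in all 9 lists was 4.19 and 30.3 in young WT Cre, 15.9, 7.57 and 10.7 in young EC-K4KO, 4.63 and 14.1 in old WT Cre, and 5.64 and 9.06 in old EC-K4KO. All libraries thus placed it in the lower part of these constant promoters. The difference was -3.94 points by genotype (exact permutation p = 0.55, adjusted p = 0.846) and -5.97 by age (p = 0.45, adjusted p = 0.624, same exact permutation test). Without young WT Cre replicate 2 they turned to 2.60 and 0.563 points. None of the 2279 genes passed for strength or width by either factor (0%), while 213 and 551 genes had an unadjusted p under 0.05 for strength by genotype and by age. The limit set by the 60 arrangements holds for these genes too. The genes whose percentiles over the 9 libraries were most like those of Abcc4 were Apbb2 and Sirt3, at mean absolute differences of 3.45 and 4.04 points.

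Averaged over the other factor, peaks were wider in EC-K4KO and in old libraries at nearly all constant sites, and the transporters were among them. The width of the Abcg2 internal start was 205 and 296 bp in young WT Cre, 389, 514 and 502 bp in young EC-K4KO, 587 and 585 bp in old WT Cre, and 594 and 536 bp in old EC-K4KO. That is 98.4 bp more by genotype and 216 bp more by age, where the median over all 4872 regions was 127 and 179.9 bp, and 97.4% and 97.6% of all regions shared the direction. In old libraries alone the genotypes overlapped at this start, with 594 and 536 bp in EC-K4KO and 587 and 585 bp in WT Cre. They also overlapped at the Abcc6 region, with 727 and 734 bp against 744 and 714 bp. At the Abcc4 regions both old EC-K4KO libraries were wider than both old WT Cre libraries. Of the 5 transporter regions, all had positive differences by both factors, from 79.8 to 136 bp by genotype and from 118 to 346 bp by age, and none passed (adjusted p from 0.114 to 0.561 by genotype and from 0.0739 to 0.125 by age, exact permutation test). Divided by the median promoter width of the library, the differences of the Abcc6 region by both factors, of the Abcc4 region at 47957 bp by genotype and of the Abcc4 upstream region by age turned negative. At the Abcc4 promoter, among the 2279 genes, the width differed by 136 bp by genotype and 275 bp by age (adjusted p = 0.204 and 0.0828, exact permutation test), where 864 and 918 genes had an unadjusted p under 0.05.

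**Figure D4:**
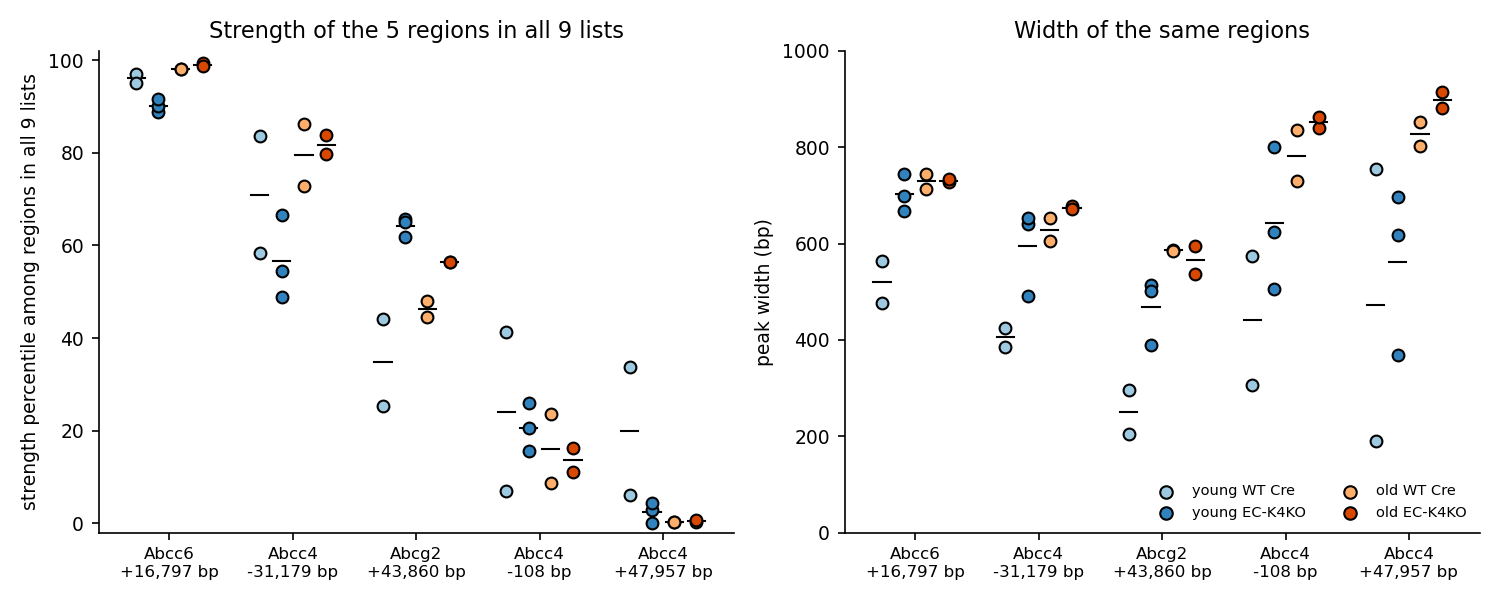
Strength percentile among the regions present in all 9 lists (left, higher is stronger) and width in bp (right) of the 5 transporter regions, each named by its gene and its distance from the TSS, 1 point a library by group, with bars at group means. The Abcc6 region lies above 88 in every library, the EC-K4KO points of the Abcg2 internal start lie above the WT Cre points of the same age, and young WT Cre has the lowest mean width at each region.

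Other genes of the family and of the pathways that act on it were counted from lists. Of 36 other ABC genes, 22 had a start-site peak in some library and 9 in every library (Abca3, Abca5, Abcb8, Abcb9, Abcb10, Abcc10, Abcd3, Abcf1 and Abcf2), and among genes with one in some library, those with one in every library were 9 of 22 here, 1 of 8 transporters and 3265 of 12755 genes in all. Old WT Cre against young WT Cre gained 6 of these 22 ABC genes, among them Abca2, Abcb4, Abcd2 and Abcd4, against 31.1% of the 12755 genes. Young EC-K4KO against young WT Cre gained 2 of the 22, against 14.9%. Of 23 regulators and lipid partners, 19 had a start-site peak in some library and 9 in every library, among them Nfe2l2, the regulator of the antioxidant response, and Srebf2, a regulator of cholesterol synthesis. Of these 19, old WT Cre against young WT Cre gained 4 and young EC-K4KO against young WT Cre gained 1, where the shares of all genes were again 31.1% and 14.9%.

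Of 15 endothelial markers, 7 to 14 had a start-site peak in each library, and Cldn5, Cdh5, Tie1, Flt1, Egfl7 and Slc2a1 had one in all 9. Erg had none in any library. Pecam1, Tek, Slco1a4, Sox17, Sox18 and Emcn had none in young WT Cre and one in every library of another group. Of the 14 endothelial markers with one in some library, old WT Cre against young WT Cre gained 5, against 31.1% of all genes. Young EC-K4KO against young WT Cre gained 2 of the 14, against 14.9%. Of 10 pericyte and smooth muscle markers, none had a start-site peak in a young library, 0 and 2 had one in old WT Cre, and 5 and 4 in old EC-K4KO. Astrocyte markers numbered up to 4 of 10 in old EC-K4KO replicate 1 without Gfap and Aqp4, and neuronal markers up to 4 of 10 in both old EC-K4KO libraries without Rbfox3. Oligodendrocyte markers numbered at most 2 of 10, and microglial markers 0 of 10 everywhere. Over all genes, 3891 and 5418 had a start-site peak in young WT Cre, and 10929 and 10489 in old EC-K4KO. Among markers with one in some library, old EC-K4KO against old WT Cre gained 2 of 6 pericyte and smooth muscle markers. That comparison gained 2 of 4 astrocyte, 2 of 5 neuronal, 0 of 2 oligodendrocyte and 1 of 14 endothelial markers, against 2.27% of all genes. The old EC-K4KO libraries also held the most distal transporter regions, and the part of other cell types in that number was not tested. Klf4 itself had a start-site peak in all 9 libraries, and such a peak does not check the deletion.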

How the data were processed

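Omni-ATAC-seq was carried out by the authors on flow-sorted brain ECs in 9 libraries. Per the study's methods, reads were trimmed with TrimGalore, mapped to mm10 (GRCm38) with Bowtie2, cleared of duplicates and called as broad peaks with MACS2 in each library alone. The deposited lists give a score (10 times the -log10 q), a fold (ratio of signal to local background), a -log10 p and a -log10 q per peak. The lists were annotated by the authors with HOMER (file headers), whereas the methods name ChIPseeker. All 253457 peaks lay within GRCm38. Read counts were not used here. Depth is therefore unknown, no counting interval can be given, and p-values measure the spread between libraries only.

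Presence, position by -log10 p and width were computed with Python 3.11.15, numpy 2.4.6, pandas 2.3.3 and matplotlib 3.10.9. The exact test was checked on simulated data. Named are all 9 members and, of 33 distal regions with a peak in at least 6 libraries, or in every library of a group and in no young WT Cre library, the 12 with the best mean position. The members, the lists and the tests were chosen with earlier results of these data known. Libraries of the same number did not deviate together (correlations of -0.037 to 0.116 over 2279 genes), so they were not paired. The alternatives left out each library, or changed the promoter definition, the q filter, the ordering, the list length or the width scale. RefSeq promoters were found for 6 of the 9 members.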

Additional observations from a re-analysis of the deposited data

Results flagged for a closer look

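At 3 of the 5 regions present in every list, all libraries of a group moved one way in one stratum and the opposite way in the other. The difference between the strata was not tested in any of them. For the Abcc4 region at 47957 bp, the strength of EC-K4KO minus WT Cre was -17.5 percentile points in young and 0.277 in old libraries. The old percentiles were at the bottom of the scale, 0.318 and 0.277 in WT Cre and 0.359 and 0.79 in EC-K4KO. The young value rested largely on young WT Cre replicate 1, at 33.8 against 6.13 in replicate 2, and was -3.65 points without it. For the Abcc6 intron 9 region at 16797 bp, EC-K4KO minus WT Cre was -5.93 points in young and 1.02 in old libraries. There the old percentiles were near the top of the scale, 98.0 and 98.0 in WT Cre and 99.3 and 98.8 in EC-K4KO. For the Abcg2 internal start at 43860 bp, the strength of old minus young was 11.4 points in WT Cre and -7.79 in EC-K4KO libraries, and the WT Cre value was 2.03 points without young WT Cre replicate 1. The young WT Cre lists behind these values were the shortest of the 9, at 6157 and 9598 peaks, and the part of list length was not tested.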

How the results depend on the processing

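No alternative gave an adjusted p under 0.05 for a transporter, and every exact test across genes or regions kept a count of 0 called. With so few arrangements of the libraries a call was hardly reachable, so this count is no measure of stability. The differences in transporter peaks changed with the scaling to list length. Instead of 14.4 by genotype and 27.6 by age, the differences were 1.67 and -0.167 peaks at equal list length, and 1.37 and 1.95 per 10000 peaks. For peaks outside the promoter class, instead of 13.2 and 24.8, they were 1.08 and 0.417, and 1.47 and 1.99. Leaving out 1 library at a time gave 12.8 to 16.8 and 25.2 to 29.2 for all peaks, and 11.5 to 15.2 and 22.8 to 26.5 for those outside the promoter class. Without young WT Cre replicate 2, strength turned to 2.60 by genotype and 0.563 by age at the Abcc4 promoter, to 5.63 and 1.04 at the Abcc4 start-site region, and to 0.241 by genotype at the Abcc4 upstream region. Without old WT Cre replicate 2 the start-site region turned to 0.795 by genotype. With each library left out, these ranged from -10.5 to 2.60 and -12.5 to 0.563, from -11.5 to 5.63 and -16.1 to 1.04, and from -12.3 to 0.241. Without young WT Cre replicate 1, the width of the Abcc4 region at 47957 bp by genotype turned to -61.2 bp (range -61.2 to 220.8), and the strength of the Abcg2 internal start by age to -2.88 (range -2.88 to 6.53). That Abcg2 value was -9.29 by fold and -0.11 as log2 position, and the Abcc6 region by age was -8.41 by fold. Relative width gave -0.106 for the Abcc4 region at 47957 bp by genotype, -0.0874 and -0.135 for the Abcc6 region, and -0.0154 for the Abcc4 upstream region by age. The cause of these turns was not tested.

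With the replicate block, transporter peaks differed by 12.8 by genotype and 29.2 by age, and no call changed. Its 4 pairs cannot give a p under 0.125 by the exact sign-flip test. The lists give presence and order without read counts, so an absent peak says only that the peak caller did not list one at this unknown depth.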
